A study of Mus musculus with 16 samples.

Results

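Each of the 16 libraries of this series carries a letter after the number in its label, and the letters used are B and D. The comparison here is of the 8 libraries with letter B and the 8 with letter D, chosen by that letter alone, which takes in 16 of the 16 libraries. Each letter holds 4 Fmr1-KO and 4 WT libraries, so letter and genotype are balanced. What the letter stands for is not given in the labels used here.

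The CA1 subfield of the mouse hippocampus was profiled by RNA sequencing in Fmr1-KO mice and in WT mice given as C57BL/6. All of them were yoked controls in active place avoidance. A yoked control is placed in the arena and receives the foot shocks of a trained partner, so that shock is unrelated to where the control animal stands. Libraries are named below by number and letter. The Fmr1-KO B group is 116B, 118B, 119B and 120B, and the Fmr1-KO D group is 117D, 118D, 119D and 120D. The WT B group is 122B, 123B, 125B and 126B, and the WT D group is 122D, 123D, 124D and 125D. Age, sex and litter are not given in the labels used here. Of the numbers, 6 occur with both letters, and the labels do not say whether libraries of the same number come from separate animals. The p-values measure only the spread between these libraries, which may be technical.

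CA1 pyramidal neurons are the output cells of the hippocampus proper, and experience changes their transcriptome on several time scales. Immediate early genes such as Fos, Arc and Npas4 are transcribed within minutes of strong activity, while genes of channels, receptors, ribosomes and mitochondria respond more slowly. Bulk RNA also reflects how much of each cell type a dissection holds, and fewer cells of a type cannot be told apart from less RNA per cell. Levels are given as CPM after TMM scaling in edgeR, which puts the libraries on one scale. The marker list for CA1 pyramidal neurons summed to 2790 to 3440 CPM in B and 3170 to 3480 CPM in D, and 0 of its 10 genes were at 0 in every library.

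Depth was not balanced between the letters. Total estimated counts ran from 1480966 to 3275003 in the 8 D libraries and from 2136524 to 2979481 in 6 of the 8 B libraries. The other B libraries, 123B and 125B, held 878484 and 515103, and both are WT. The 10 largest genes took 31.59% of counts in 125B and 10.35% in 123B, against 3.725% to 6.061% in the other 14. Protein-coding transcripts took 58.38% and 80.67% of their counts, against 87.59% to 91.8% elsewhere. They make up 2 of the 4 WT B libraries. Some results that rest on that group are also given without them, and others only with them.

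**Figure D1:**
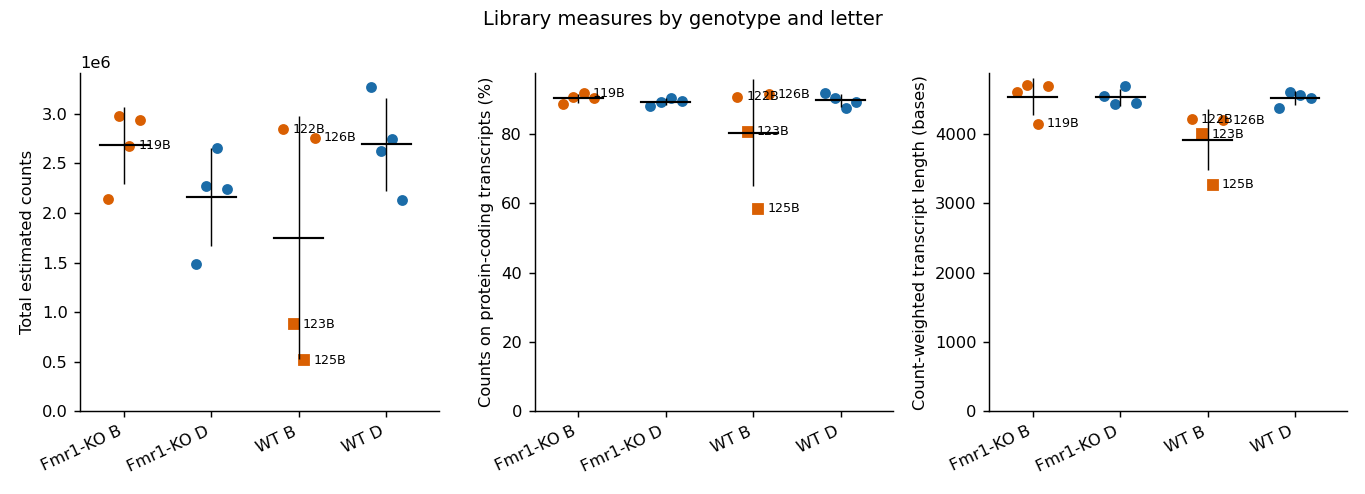
Total estimated counts, share of counts on protein-coding transcripts in percent, and count-weighted transcript length in bases for each of the 16 libraries, by genotype and letter (orange B, blue D, squares 123B and 125B, black line and bar the mean and SD of 4 libraries). 123B and 125B lie below all other libraries in depth and protein-coding share, and the 5 labelled B libraries have shorter count-weighted transcript lengths than all 8 D libraries.

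The B libraries 119B, 122B, 123B, 125B and 126B had a count-weighted mean transcript length of 4150, 4214, 4001, 3270 and 4199 bases. All 8 D libraries and the other 3 B libraries lay between 4379 and 4706 bases. B averaged 4231 ± 474.1 bases and D 4524 ± 102.7 bases (SD, n = 8 each). That difference had a two-sided exact permutation p of 0.0918, or 0.524 when adjusted over 6 library measures. Without 123B and 125B the B mean was 4430 ± 268.4 bases (n = 6, exact permutation p = 0.373). The other 5 measures (total counts, share of the 10 largest genes, protein-coding share, mitochondrial share and genes detected) had exact permutation p-values of 0.38 to 0.6. None of the 6 passed.

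Library profiles were about as alike across letters as within them. The Spearman correlation across genes between libraries of the same genotype had a median of 0.944 over 24 pairs of the same letter and 0.945 over 32 pairs of different letters. Between genotypes it was 0.942 and 0.945. These values describe libraries that share genes and differ in depth, and carry no test. In a principal component analysis 123B lay farthest out on the first component (30.2% of the variance) and 125B on the second (17.3%). Without them the first 2 components took 14.5% and 11.4%.

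Fmr1, the targeted gene, checks the genotype labels within each letter. Its product FMRP binds messenger RNAs and holds back their translation. The gene lies on chromosome X at 68678541 to 68717963 (GRCm38, GENCODE M21). Fmr1 stood at 8.38, 20.2, 19.5 and 28.3 CPM in Fmr1-KO B and at 22.7, 26.1, 32.0 and 20.7 CPM in Fmr1-KO D. In WT it stood at 57.9, 38.4, 41.2 and 44.2 CPM in B and at 65.6, 62.8, 51.6 and 99.3 CPM in D. All 8 Fmr1-KO libraries were below all 8 WT libraries, in both letters.

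Between letters, Fmr1 was 32.2 ± 16.1 CPM in B and 47.6 ± 27.5 CPM in D (SD, n = 8 each). The log2 fold change of B over D, with genotype as a covariate, was −0.50 (SE 0.20, unadjusted p = 0.0211, adjusted p = 0.969 by edgeR over all genes). The difference had the same sign in Fmr1-KO (−0.40, SE 0.29) and in WT (−0.59, SE 0.28), and it did not pass. In TPM the genotypes overlapped in both letters. Fmr1-KO B ran from 6.89 to 22.98 TPM, and of the WT B libraries 123B (8.06), 125B (7.88) and 126B (21.23) lay inside that range and 122B (29.11) above it. Fmr1-KO D ran from 10.58 to 24.73 TPM, with 124D of WT inside it at 13.54 and the other 3 WT D libraries at 35.99 to 43.34.

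No single gene passed between B and D. Of 12784 genes tested, 0 (0%) passed an adjusted p of 0.05 in edgeR's quasi-likelihood test, and the smallest adjusted p was 0.969. Genes with an unadjusted p under 0.05 numbered 523, which is 4.09% of those tested, 273 higher in B (2.14%) and 250 lower (1.96%). DESeq2 and limma-voom with quality weights also called 0, with 670 and 811 genes at an unadjusted p under 0.05. The median standard error of a log2 fold change was 0.238. Without 123B and 125B, 0 of 13774 genes passed, the smallest adjusted p was 0.317, and 724 genes (5.26%) had an unadjusted p under 0.05. Among transcripts 0 of 23853 passed, with 520 (2.18%) at an unadjusted p under 0.05.

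Many genes on the higher side of that unadjusted list peaked in the shallow libraries. Of the 273 genes higher in B, 202 (74%) had their highest level in 123B or 125B, against 32.8% of all genes tested and 3 of the 250 genes lower in B. Within WT the share was 90.1% of the 578 genes higher in B. Genes picked as higher in B are apt to peak in a B library, and genes picked as lower are not. These shares are therefore partly a product of the selection. Complete separation of the letters was seen for 1 gene, 2900076A07Rik (0.00782% of those tested), with all 8 B libraries above all 8 D libraries, and 0 genes had all 8 below. It was picked out after its values were seen. Its B libraries ran from 2.94 to 34.9 CPM, the highest being 123B, and its D libraries from 0 to 2.64 CPM (log2 fold change 1.92, unadjusted p = 0.00513, adjusted p = 0.969 by edgeR).

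**Figure D2:**
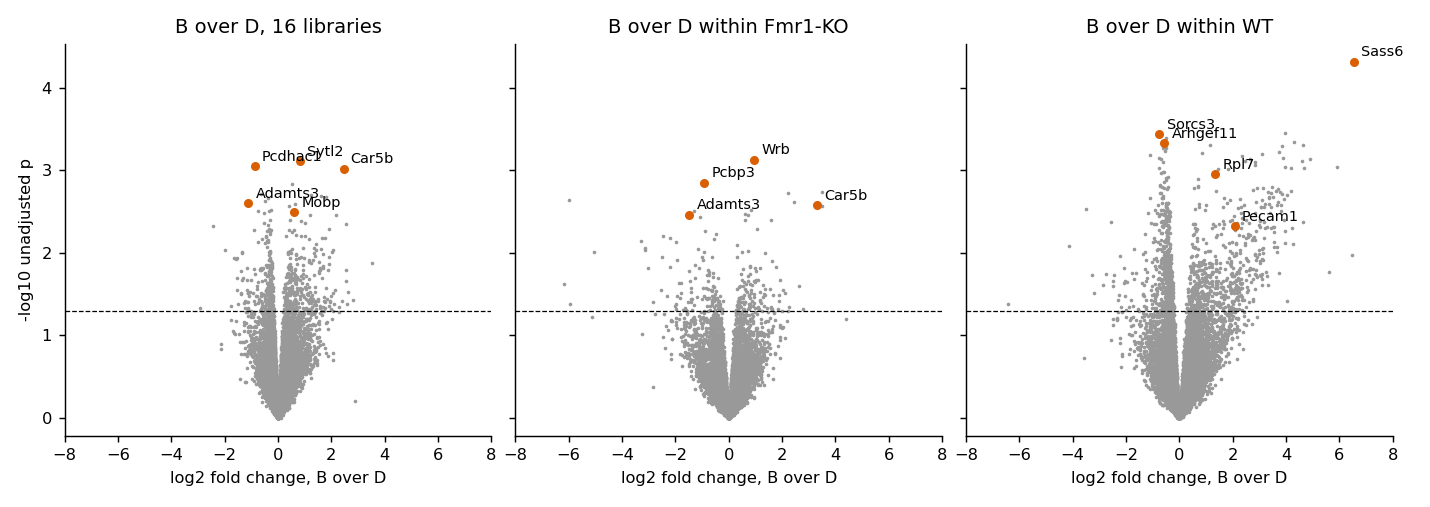
Log2 fold change of B over D (x axis) against −log10 of the unadjusted edgeR p (y axis) for 12784 genes over all 16 libraries, within Fmr1-KO and within WT, with a dashed line at the unadjusted threshold. No gene passes adjustment in any panel, and the WT panel holds a spray of genes toward higher B values, 90.1% of the 578 above the line on that side being highest in 123B or 125B. That share is partly a product of picking genes higher in B.

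The genes nearest the threshold, the 5 with the smallest p in each direction, are named by rule, so their separation is partly a product of that choice. Sytl2, which encodes a synaptotagmin-like partner of Rab27 in membrane traffic, lies on chromosome 7 at 90302252 to 90410719 (GRCm38) and had the smallest p of all. It stood at 17.7, 22.6, 31.4 and 30.3 CPM in Fmr1-KO B and at 12, 15, 15.2 and 16.3 CPM in Fmr1-KO D. In WT it stood at 24.9, 45.3, 50.0 and 22.8 CPM in B and at 22.5, 20.8, 14.2 and 17.9 CPM in D. Every B library was above every D library of its own genotype, and over both genotypes the letters overlapped. The means were 30.6 ± 11.5 CPM in B and 16.7 ± 3.48 CPM in D, a log2 fold change of 0.81 (SE 0.21, unadjusted p = 0.000774, adjusted p = 0.969 by edgeR). It was 0.61 without 123B and 125B, which hold the 2 highest values.

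The other 4 genes of the higher side were Car5b, Ndufs7, Dnajc19 and Tnfaip2, each with an adjusted p of 0.969 by edgeR. Car5b, a mitochondrial carbonic anhydrase, stood at 2.89 to 6.73 CPM in Fmr1-KO B and 0 to 1.11 CPM in Fmr1-KO D, and at 2.04 to 17.6 and 0.747 to 3.72 CPM in WT (log2 fold change 2.45, SE 0.64). The letters overlapped in WT, where 123B and 125B were highest and the log2 fold change without them was 0.13. Ndufs7, a subunit of respiratory complex I, averaged 64.3 ± 12.3 CPM in B and 44.7 ± 9.85 CPM in D (log2 fold change 0.52, SE 0.14, or 0.47 without 123B and 125B). Dnajc19, of the protein import motor of the mitochondrial inner membrane, had a log2 fold change of 1.24 (SE 0.35), or 0.77 without 123B and 125B. Tnfaip2, a gene induced by tumour necrosis factor, had 1.61.

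On the lower side stood Phka2, Pcdhac1, Ccser2, Fmn1 and Adamts3, each again with an adjusted p of 0.969 by edgeR. Phka2, a regulatory subunit of phosphorylase kinase, was at 32.1 to 42.8 CPM in Fmr1-KO B and 44.2 to 64.2 CPM in Fmr1-KO D, and at 29.1 to 37.7 against 40.9 to 70.3 CPM in WT. Its letters did not overlap within either genotype (log2 fold change −0.50, SE 0.14). Pcdhac1, a clustered protocadherin of cell adhesion, averaged 11.5 ± 4.04 CPM in B and 20.7 ± 6.54 CPM in D (−0.87, SE 0.23). Ccser2, a coiled-coil protein gene, averaged 98.5 ± 14.1 and 128 ± 14.7 CPM (−0.36, SE 0.10). Fmn1, a formin that nucleates actin filaments, had −0.66 (SE 0.19), and Adamts3, an extracellular metalloproteinase, had −1.12 (SE 0.33). These 5 log2 fold changes were −0.44, −0.83, −0.34, −0.59 and −1.06 without 123B and 125B.

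**Figure D3:**
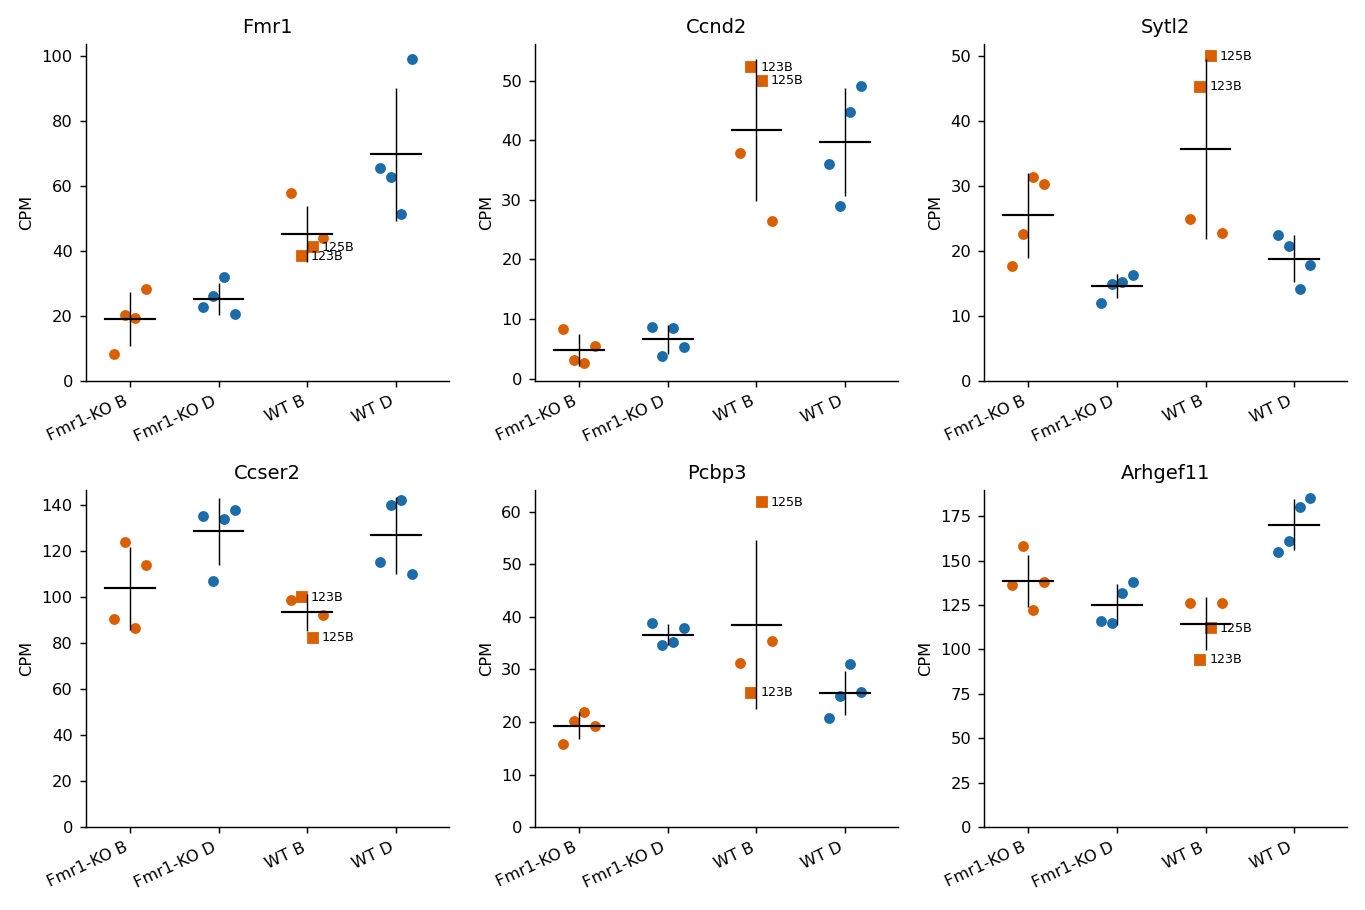
TMM-scaled CPM of 6 genes in each of the 16 libraries by genotype and letter (orange B, blue D, squares 123B and 125B, black line and bar the mean and SD of 4 libraries). Fmr1 and Ccnd2 split by genotype in both letters, Sytl2 is higher and Ccser2 lower on average in B in both genotypes, and the letters are apart for Pcbp3 in Fmr1-KO and for Arhgef11 in WT. Sytl2, Ccser2, Pcbp3 and Arhgef11 were named by rule for their small p.

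The interaction term asks whether the B over D difference depends on genotype, and is the difference in Fmr1-KO minus that in WT. Here 0 of 12784 genes passed in edgeR. The smallest adjusted p was 0.881, and 714 genes (5.59%) had an unadjusted p under 0.05. DESeq2 and limma-voom with quality weights called 0 as well, with 840 and 992 such genes. Without 123B and 125B, 0 of 13774 passed and 720 (5.23%) had an unadjusted p under 0.05. The median standard error was 0.476.

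The interaction genes named by rule each had an adjusted p of 0.881 by edgeR. They were picked for small p, so separation of the letters within a genotype is partly a product of that choice. Pcbp3, an RNA-binding protein of the poly(C)-binding family, stood at 15.8, 20.2, 22.0 and 19.2 CPM in Fmr1-KO B and at 38.8, 34.6, 35.3 and 37.8 CPM in Fmr1-KO D. In WT it was 25.6 to 61.8 CPM in B and 20.7 to 31.0 CPM in D. The letters were apart in Fmr1-KO and overlapped in WT, for an interaction of −1.42 (SE 0.36). Slk, a STE20-like kinase, had the other arrangement, with 103 to 141 CPM in WT B, 156 to 177 CPM in WT D, and overlap in Fmr1-KO (interaction 0.74, SE 0.18). Arhgef11, an exchange factor for RhoA, stood at 94.2 to 126 CPM in WT B and 155 to 185 CPM in WT D (interaction 0.71, SE 0.19). Lrp8, a receptor for reelin and apolipoprotein E, stood at 39.5 to 55.8 CPM in WT B and 68.0 to 93.7 CPM in WT D (interaction 0.98, SE 0.28).

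Within each genotype 0 genes (0%) passed in edgeR. Genes with an unadjusted p under 0.05 numbered 230 (1.8%) within Fmr1-KO and 1146 (8.96%) within WT. Both contrasts share a spread estimated over all 16 libraries, so 123B and 125B enter the Fmr1-KO p-values too. In the same model without 123B and 125B such genes numbered 511 within Fmr1-KO and 974 within WT, of 13774 genes. Fitted on only the 8 libraries of each genotype, they numbered 288 of 11482 within Fmr1-KO and 778 of 11791 within WT. Wrb, a receptor for the insertion of tail-anchored membrane proteins, had the smallest p on the higher side within Fmr1-KO, at 36.4 to 61.6 CPM in B and 23.7 to 27.4 CPM in D (log2 fold change 0.95, SE 0.24, adjusted p = 1 by edgeR). Within WT, Sorcs3, a sorting receptor (−0.75, SE 0.18), Ntrk2, the BDNF receptor TrkB (−0.48, SE 0.11), and Map1b, a microtubule-associated protein (−0.56, SE 0.13), were each lower in all 4 B libraries than in all 4 D libraries, with an adjusted p of 0.313 by edgeR. Ntrk2, for example, stood at 407, 321, 435 and 467 CPM in WT B and at 517, 551, 624 and 588 CPM in WT D. The log2 fold changes of these 3 were −0.57, −0.38 and −0.57 without 123B and 125B. Wrb and these 3 were named by rule for their small p, so their separation is partly a product of that choice. Sass6, a centriole assembly gene, had the WT value of smallest p, 6.54. It stood at 1480 CPM in 125B and 248 CPM in 123B against 1.86 to 20.0 CPM in the other 14 libraries, and its WT value was 0.37 without them. DESeq2 called 62 of 12784 genes within WT, 29 higher and 33 lower in B, and Sass6, Sorcs3, Ntrk2, Map1b and Arhgef11 were among them. So were Gm13568, Gm26822, Gm29013 and B630005N14Rik, which are among the 10 largest genes of 125B. DESeq2 was not run without 123B and 125B.

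Lists of genes by role are described by counts and medians beside those of all genes, and were not tested. Over all genes tested the median log2 fold change of B over D was 0.01, with 50.9% higher in B and 49.1% lower. Of 78 cytosolic ribosomal protein genes tested, which build the translation machinery, 76 were higher in B, with a median of 0.23. Of these, 6 were higher at an unadjusted p under 0.05, beside 2.14% of all genes, and 0 passed the threshold. Rpl36 averaged a log2 fold change of 0.49 and Rpl7 of 0.87. Rpl7 stood at 612 CPM in 125B and 257 CPM in 123B, against 59.5 to 134 CPM elsewhere, and had 0.34 without them. Of 76 nuclear genes of oxidative phosphorylation, 68 were higher, with a median of 0.20. All 13 mitochondrially encoded protein genes were higher, with a median of 0.23 and with mt-Nd6, a complex I subunit, at 0.38. A further fit took the number as a block, over the 12 libraries whose number occurs with both letters. There 49 of 78 ribosomal, 41 of 76 oxidative phosphorylation and all 13 mitochondrially encoded genes were higher. Their medians were 0.03, 0.02 and 0.13, beside −0.03 for all genes, of which 45.9% were higher. Reads of ribosomal and mitochondrial genes can be shared with near-identical copies, so single values there are uncertain.

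**Figure D4:**
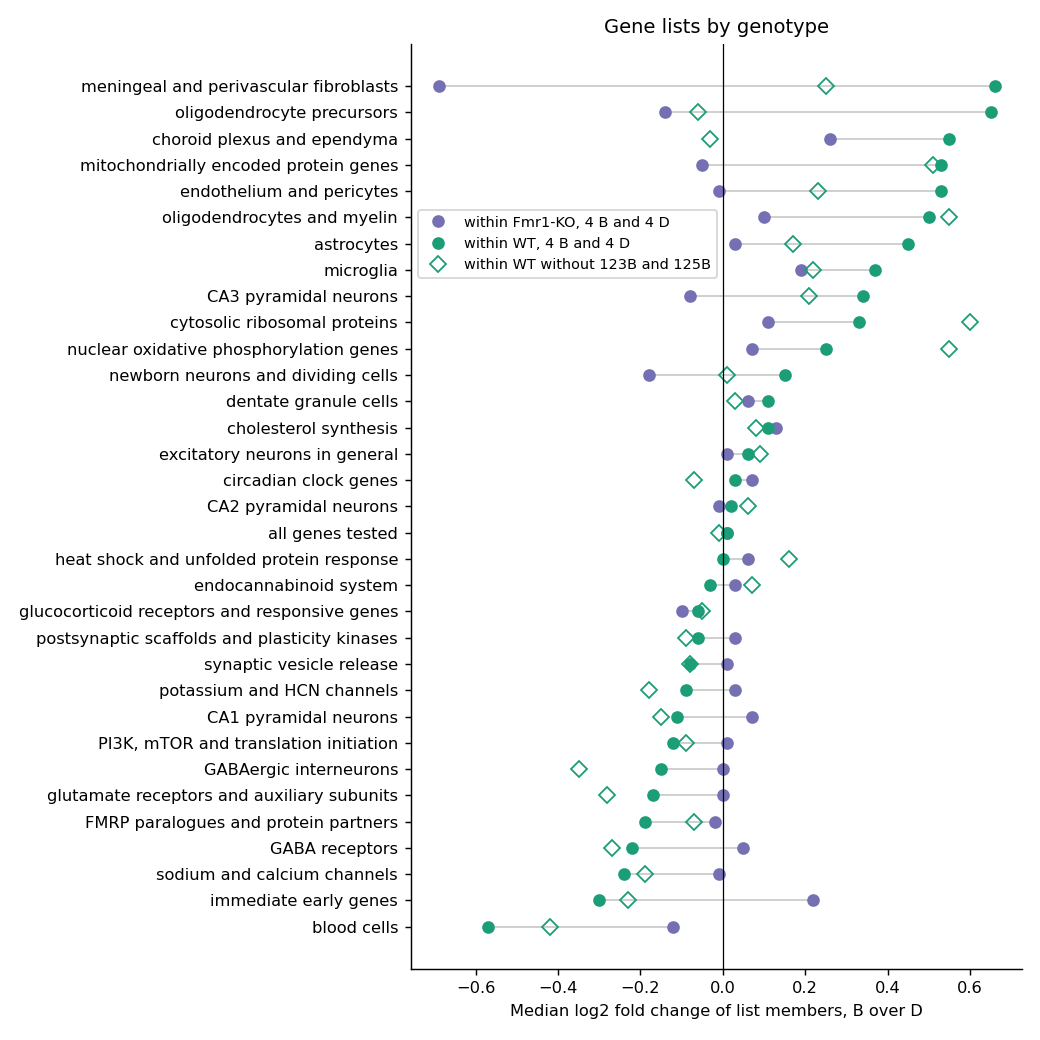
Median log2 fold change of B over D (x axis) for the tested members of each gene and marker list, within Fmr1-KO (purple), within WT (green) and within WT without 123B and 125B (open diamonds). The ribosomal, oxidative phosphorylation and mitochondrially encoded lists have higher medians in WT than in Fmr1-KO, and the immediate early genes lie on opposite sides of 0.

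Within the genotypes these medians were unequal, a difference between lists that was not tested. The ribosomal median was 0.11 within Fmr1-KO and 0.33 within WT. In WT without 123B and 125B it was 0.60, with 39 of 78 genes higher at an unadjusted p under 0.05, against 2.8% of all genes in that fit. The oxidative phosphorylation medians were 0.07, 0.25 and 0.55 in the same order. Within Fmr1-KO the 2 medians turned to −0.22 and −0.20 when 119B was left out, and within WT they were 0.14 and 0.08 without 126B. For the mitochondrially encoded genes they were −0.05 (−0.20 without 119B), 0.53 and 0.51, and 10 of 13 were higher at an unadjusted p under 0.05 within WT, against 4.52% of all genes. In the interaction all 13 were below 0, with a median of −0.54, where 50.6% of all genes were above 0.

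A few libraries carried these sums. The ribosomal protein genes summed to 7707 CPM in 119B, 7635 in 126B and 6573 in 122B, against 3721 to 5536 CPM in the other 5 B libraries. In D they summed to 6184 CPM in 122D, 5403 in 118D and 5172 in 120D, and to 3735 to 4627 CPM in the other 5. The letters thus overlapped. Leaving out 119B alone took the ribosomal median from 0.23 to 0.08 and the oxidative phosphorylation median from 0.20 to 0.05. For the mitochondrially encoded genes 123B stood highest at 38813 CPM, and leaving it out gave a median of 0.13.

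**Figure D5:**
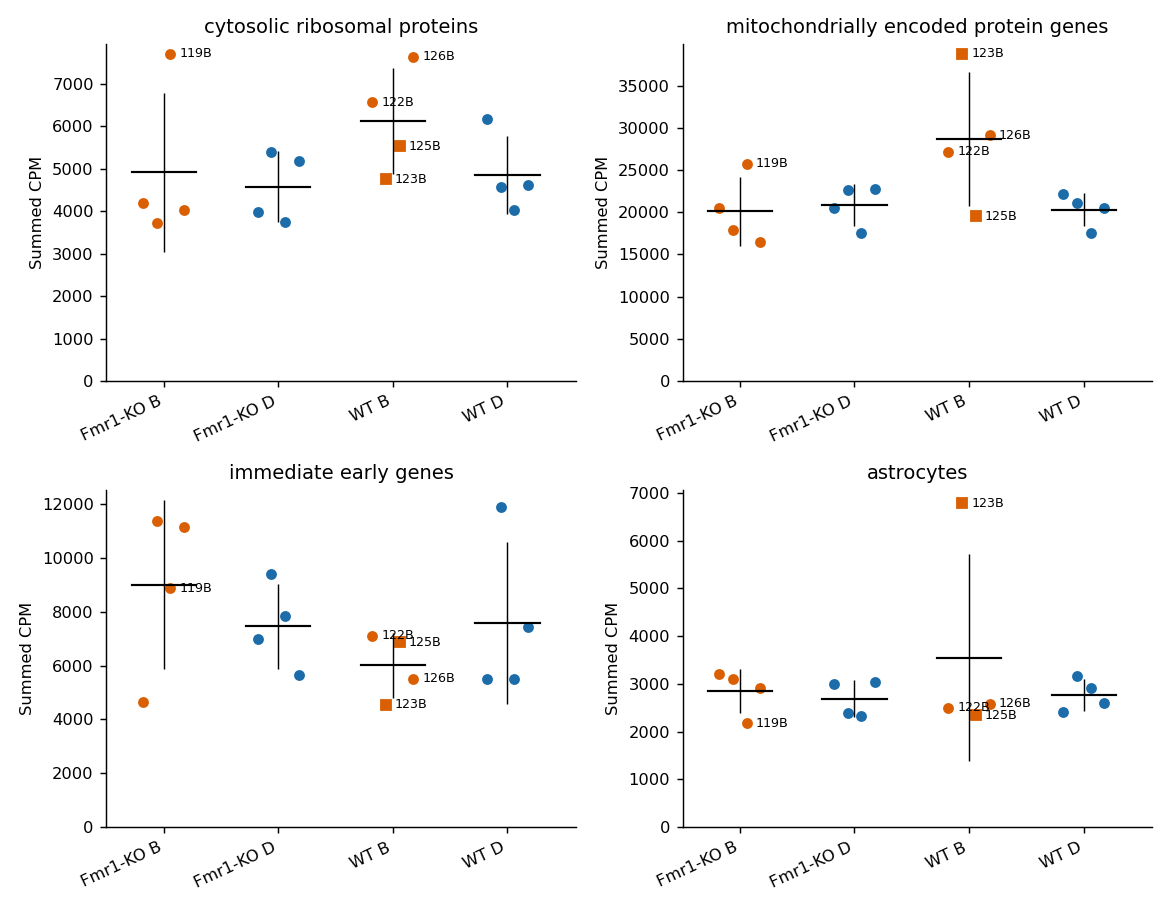
Summed TMM-scaled CPM of 4 gene lists in each of the 16 libraries by genotype and letter (orange B, blue D, squares 123B and 125B, black line and bar the mean and SD of 4 libraries). 119B, 126B and 122B hold the highest ribosomal sums, 123B has the highest mitochondrially encoded and astrocyte sums, and B and D overlap in every panel.

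Transcript length moved with the same difference. Over 816 genes with transcripts under 1000 bases the median log2 fold change of B over D was 0.18, against 0.07 for 2714 genes of 1000 to 2000 bases and 0.01 for 5507 genes of 2000 to 4000 bases. It was −0.05 for 3243 genes of 4000 to 8000 bases and −0.11 for 504 longer genes. Within WT the medians ran from 0.29 in the shortest bin to −0.23 in the longest, and from 0.45 to −0.35 without 123B and 125B. Within Fmr1-KO they ran from 0.07 to 0. The ribosomal list has a median transcript length of 757 bases, the oxidative phosphorylation list 791 and the sodium and calcium channel list 7357. The part of length in the list medians was not tested.

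Sodium and calcium channel genes, which set neuronal excitability, were lower in B in 21 of 23, with a median of −0.14, or −0.07 without 123B and 125B. Cacna1g, a T-type calcium channel, averaged 63.8 ± 23.7 CPM in B and 91.3 ± 30.4 CPM in D (log2 fold change −0.53, SE 0.16, unadjusted p = 0.00327, adjusted p = 0.969 by edgeR). Glutamate receptor genes were lower in 18 of 27, with a median of −0.10. Grin2b, the GluN2B subunit of the NMDA receptor, stood at 896 to 1790 CPM in WT B and 1860 to 2820 CPM in WT D, a log2 fold change of −0.76 (SE 0.19). Within Fmr1-KO it was 0.02 (SE 0.19), and the interaction was 0.78 (SE 0.27, adjusted p = 0.881 by edgeR). GABA receptor genes had a median of −0.01, with 2 of 15 higher within WT, beside 50.7% of all genes, and 12 of 15 higher within Fmr1-KO, beside 51.2%. Their subunit genes Gabrd (0.69) and Gabrb1 (−0.30) had opposite signs. Potassium and HCN channel genes had a median of −0.06, with the leak channel gene Kcnk1 at 0.39.

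Immediate early genes had no common direction over all libraries, with 13 of 32 higher in B and a median of −0.06. Within Fmr1-KO 27 of 32 were higher, beside 51.2% of all genes, with a median of 0.22. Within WT 27 of 32 were lower, beside 49.3% of all genes (50.7% being higher), with a median of −0.30, or −0.23 without 123B and 125B. The WT median was −0.04 without 123D, and the Fmr1-KO median 0.10 without 118B. At an unadjusted p under 0.05 there were 0 within Fmr1-KO, beside 1.8% of all genes, and 1 within WT, beside 8.96%. Gadd45b, the member of smallest p over all libraries, had a log2 fold change of 0.46.

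The spread of these genes between libraries was wide. Npas4, an activity-dependent transcription factor gene, stood at 201, 1030, 692 and 1020 CPM in Fmr1-KO B and at 494, 613, 659 and 351 CPM in Fmr1-KO D. In WT it stood at 356, 44.2, 482 and 76.8 CPM in B and at 225, 1050, 227 and 443 CPM in D. The letters overlapped in both genotypes, and the interaction was 1.56 (unadjusted p = 0.0716, adjusted p = 0.882 by edgeR). The interaction was 0.86 for Fos and 0.52 for Arc. Npas4, Fos and Arc were looked up after the list's values were seen.

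Markers of glia and vessels had positive medians in B over D. They were 0.24 for astrocytes (13 of 15 higher), 0.30 for oligodendrocytes and myelin (11 of 15), 0.20 for microglia (14 of 14), 0.26 for oligodendrocyte precursors (7 of 11) and 0.26 for endothelium and pericytes (15 of 18). These were 0.03, 0.29, 0.18, −0.08 and 0.04 without 123B and 125B. The astrocyte list summed to 6785 CPM in 123B and to 2181 to 3208 CPM in the other 15 libraries. Mobp, a myelin protein gene, averaged 56.3 ± 18.5 CPM in B and 37.3 ± 10.6 CPM in D (log2 fold change 0.61, SE 0.18, adjusted p = 0.969 by edgeR), or 0.64 without 123B and 125B. Pecam1, an endothelial adhesion gene, stood at 179 CPM in 125B and 96.5 CPM in 123B against 4.84 to 31.2 CPM elsewhere. The part of these cell types in the other lists was not tested.

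The remaining lists had medians between −0.11 and 0.09 or few tested members. Medians were −0.04 for glucocorticoid-responsive genes, 0.04 for the circadian clock, 0.02 for postsynaptic scaffolds and plasticity kinases and −0.01 for vesicle release. They were 0.09 for cholesterol synthesis, −0.01 for heat shock and the unfolded protein response, −0.11 for FMRP paralogues and partners, −0.06 for PI3K, mTOR and translation initiation and 0.03 for the endocannabinoid system. The chaperone gene Cryab of the heat shock list had 1.16. Among neurons the medians were −0.02 for CA1 pyramidal, 0.03 for CA2, 0.22 for CA3 (4 tested), −0.02 for dentate granule, 0.01 for excitatory in general and −0.09 for GABAergic markers. They were 0.40 for choroid plexus (2 tested), −0.16 for meningeal fibroblasts (5 tested), −0.47 for blood cells (4 tested) and −0.26 for newborn neurons and dividing cells (7 tested).

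The letter also divides the genotype comparison into 2 of 4 against 4 libraries. Within D, where all 8 libraries are deep, 1 of 12784 genes (0.00782%) passed in edgeR and 268 (2.1%) had an unadjusted p under 0.05. Within B, 1 passed (0.00782%) and 1568 (12.3%) had an unadjusted p under 0.05. Both contrasts share a spread estimated over all 16 libraries, so 123B and 125B enter the p-values within D too. Without 123B and 125B, 585 of 13774 genes within D and 1246 within B had an unadjusted p under 0.05. The gene past the threshold was Ccnd2 in both, which encodes cyclin D2 of the cell cycle, on chromosome 6 at 127125162 to 127152193 (GRCm38). It was chosen after its values were seen. Ccnd2 stood at 2.53 to 8.38 CPM in Fmr1-KO B and 26.5 to 52.3 CPM in WT B, and at 3.85 to 8.69 CPM and 29.0 to 49.2 CPM in D. It fell in Fmr1-KO by 3.08 on the log2 scale within B (SE 0.39, adjusted p = 0.00126 by edgeR) and by 2.59 within D (SE 0.37, adjusted p = 0.00921 by edgeR). Within D the call was lost when 118D, 120D, 124D or 125D was left out (adjusted p = 0.0895, 0.0948, 0.0528 and 0.063 by edgeR, in a range of 2.29e-08 to 1 over all alternatives). The interaction for Ccnd2 was −0.49 (SE 0.53, adjusted p = 0.937 by edgeR).

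Fmr1 did not pass within either letter in edgeR, at −1.26 (SE 0.30, adjusted p = 0.18) within B and −1.45 (SE 0.28, adjusted p = 0.307) within D. DESeq2 called it in both.

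The count of genes within B moved with single libraries. Leaving out 119B raised the genes past the threshold from 1 to 89 of 13336 (0.667%) in edgeR, 77 higher and 12 lower in Fmr1-KO. Leaving out 126B raised it to 59 (0.444%), 9 higher and 50 lower. That fit kept the shallow 123B and 125B in the WT B group. Its calls included Sass6, which stood at 1480 CPM in 125B. They also included Gm29013, Gm13568, Gm22973, Gm26822 and B630005N14Rik, which are among the 10 largest genes of 125B. These genes were picked out after that fit was seen. How many of the 59 rest on 123B and 125B was not tested. DESeq2 called 174 genes within B and 3 within D. B630005N14Rik was among the 174, and DESeq2 was not run without 123B and 125B. In edgeR without 123B and 125B, 1 gene passed within B. The 89 genes called without 119B included Grin2b, Map1b, Slk and the ribosomal genes Rpl13 and Rpl13a, which were picked out after that fit was seen.

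Several list medians of Fmr1-KO over WT were farther from 0 within B than within D, a difference that was not tested. The ribosomal list had −0.32 within B and −0.11 within D, oxidative phosphorylation −0.27 and −0.09, and the mitochondrially encoded genes −0.53 and 0.04. Immediate early genes had 0.47 within B, with 26 of 32 higher beside 49.6% of all genes, and −0.03 within D, with 14 of 32 higher beside 50.3%. All genes had a median of 0 in both. Without 123B and 125B the medians within B of these lists, from ribosomal to immediate early, were −0.58, −0.56, −0.50 and 0.32. Single libraries moved them too: the ribosomal median within B was −0.63 without 119B and −0.13 without 126B, oxidative phosphorylation −0.55 and −0.09, and the immediate early median within D was 0.23 without 123D.

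Other lists stood apart in the same way over all 16 libraries. GABA receptors had 0.23 within B and −0.08 within D, and sodium and calcium channels 0.22 and 0.04. Without 123B and 125B the medians within B were 0.17 for GABA receptors and 0.14 for sodium and calcium channels. Markers of glia and vessels were lower in Fmr1-KO within B, at −0.56 for astrocytes (14 of 15 lower), −0.56 for oligodendrocytes and myelin (15 of 15), −0.41 for microglia (14 of 14), −0.89 for oligodendrocyte precursors (9 of 11) and −0.68 for endothelium and pericytes (17 of 18). Within D they were −0.04, −0.26, −0.30, −0.14 and −0.23, and within B without 123B and 125B −0.29, −0.64, −0.35, −0.08 and −0.38. That left oligodendrocyte precursors nearer 0 within B than within D, and microglia about as far from 0 in both. The part of these cell types in the other lists was not tested. These contrasts reuse the libraries of the interaction above, in which 0 genes passed, and add no separate evidence.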

How the data were processed

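Total RNA of 16 CA1 samples was sequenced on an Illumina HiSeq, per the labels. Processing tools named by the submitters' processing notes are cutadapt, FastQC, DESeq2 and kallisto, with no version or build. The deposited tables hold, for 111706 transcripts, estimated counts from the authors' quantification, TPM scaled by the authors within each library, and transcript lengths. Reads from near-identical genes are divided by a model, so ribosomal and mitochondrially encoded genes are uncertain.

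Estimated counts were summed by the symbol in the transcript name (46403 symbols, 83 of them over more than 1 gene identifier) and rounded. Letter, number and genotype came from the sample titles. edgeR 4.0.16 in R 4.3.3 tested 12784 genes kept by filterByExpr (minimum count 10) with TMM scaling: a model of genotype and letter, and a 4-group model for the interaction and the within-group contrasts. Benjamini-Hochberg adjustment was used at 0.05. The SE is the log2 fold change over the square root of F. Exact permutation tests (two-sided, SciPy 1.17.1) served for library measures. The test was tried on simulated counts. Alternatives were DESeq2 1.42.0, limma 3.58.1 voom with quality weights, other scalings and filters, log2(TPM + 1) and log2(TPM + 0.1), the number as a block, sva 3.50.0, and leaving out libraries. Length bins, and leaving out single libraries for the lists, were added after seeing the data.

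Genes named by rule are Fmr1, the 5 with the smallest p in each direction of each contrast, and up to 3 of smallest p per list. The members, the 17 gene lists and 15 marker lists were chosen with earlier results of these data known. 0 columns of values were unmapped.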

Additional observations from a re-analysis of the deposited data

Results flagged for a closer look

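In each group of 4 libraries, the highest or lowest was compared with the rest by Dixon's ratio (the gap to the nearest library over the whole range). Of 188 groups of library measures and named genes, 12 exceeded its 95% critical value, and chance flags about 1 in 20. In WT B, 123B stood apart for 2900076A07Rik (34.9 CPM), the receptor gene Gpr26 (158 CPM) and Ndufs7 (90.7 CPM), and 125B for Sass6 (1480 CPM). In Fmr1-KO B, 116B stood apart in the share of its 10 largest genes (5.122%, the others at 3.947% to 3.971%) and 119B in Slk (145 CPM, against 182 to 187). In Fmr1-KO D, 117D stood apart for Wrb (27.4 CPM), 118D for Ccser2 (107 CPM) and 119D for Gabrb1 (338 CPM) and Kcnk1 (39.4 CPM). In WT D, 125D stood apart for Pcdhac1 (7.81 CPM) and Phka2 (70.3 CPM). No interaction passed the edgeR test in the main fit.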

How the results depend on the processing

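B over D and the interaction stayed at 0 calls under DESeq2, voom, other scalings, 1 CPM in 8 libraries and filtered log2 TPM, as did B over D with 1 surrogate variable of sva. With no filter the counts were 101 for B over D (80 of them highest in 125B), 153 for the interaction, 29 within Fmr1-KO, 316 within WT, and 500 and 37 for genotype within B and D. DESeq2 gave 1 within Fmr1-KO, 62 within WT, 174 within B and 3 within D. Voom gave 74 within B. Log2(TPM + 1) and log2(TPM + 0.1) gave 0 for genotype within both letters. Unfiltered log2(TPM + 1) gave 1 for the interaction, 1 within WT and 0 within B. A threshold of 0.1 gave 2 within B. Fmr1 within B reversed to 0.01 in the 3 TPM fits.

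Deviations from the group mean correlated at −0.04 to 0.177 between same-number B and D libraries. Between B and D libraries of the same genotype and different number they correlated at −0.16 to 0.226. The number was not used as a pair in the main fits. These correlations carry no test and cannot show what the number stands for. With the number as a replicate block, 0 genes passed over 6 numbers, 1 over the 4 without 123 and 125, 4 for the interaction and 1 within WT. In the block fit of 6 numbers, which uses 12 libraries, the ribosomal list had 49 of 78 higher in B (median 0.03), oxidative phosphorylation 41 of 76 (0.02) and microglia 8 of 14 (0), beside 45.9% of all genes (−0.03).

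Leaving out each library gave 0 to 16 calls within WT, 1 to 89 for genotype within B and 0 to 2 within D. Without 122B, 1 gene passed within WT. Without 123B and 125B, B minus D reversed for total counts (294500), top-10 share (−0.3369), protein-coding share (1.028) and genes detected (250.3). The causes were not tested. 123B and 125B held the fewest counts and the fewest genes detected (13188 and 14586), so low genes rest on few counts there.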
